A study of Homo sapiens with 12 samples.

Results

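The hypoxia response and glycolysis genes form a module of 38 genes, taken from a fixed list of symbols and matched to the Ensembl identifiers of the expression tables. All 38 were found among the 60617 genes of each sample. For testing, 37 of the 38 passed the filter on low counts, as did 17620 of all genes. The exception was CA9. The list holds 6 genes of oxygen sensing and the HIF (hypoxia-inducible factor) subunits, 10 hypoxia-inducible targets, 3 transporters of glucose and lactate, 8 genes of upper glycolysis, 7 of lower glycolysis with lactate dehydrogenase, and 4 regulators of glycolytic flux. The rule uses no expression value, but the members were chosen with earlier results of these data known.

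HIF is a transcription factor made of an oxygen-regulated alpha subunit and a constitutive beta subunit. When oxygen is present, prolyl hydroxylases mark the alpha subunit for destruction, so that HIF1A activity is set largely at the protein level. When oxygen falls, HIF binds short motifs in DNA and raises genes for glucose uptake, glycolysis and blood vessel growth. Glycolysis splits glucose into pyruvate, and many tumour cells run it at a high rate even with oxygen.

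The samples came from SNU308, a human gallbladder cancer line with the genotype WT on its labels, 3 days after transfection with 25 nM siRNA. In 4 samples the siRNA was a non-targeting control (NTC), in 4 it was siCEACAM6#2 and in 4 siCEACAM6#3, both aimed at CEACAM6, a cell surface glycoprotein of the carcinoembryonic antigen family. The series text names 4 individual experiments but says nothing of separate cultures, so p-values measure only the spread between these samples. A single line was used, the sources do not mention any change in oxygen, and the NTC samples carry siRNA as well. The labels name Oligofectamine as the reagent whereas the study's methods name RNAiMAX. In bulk RNA, fewer cells expressing a gene and less RNA per cell cannot be told apart.

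Total estimated counts ran from 21799476 to 22059456 per sample. The 6 epithelial markers were abundant, with KRT7, KRT8, KRT18 and KRT19 at 985 to 3610 TPM (a level scaled for transcript length and depth), EPCAM at 196 to 261 TPM and CDH1 at 107 to 123 TPM. The 4 fibroblast markers summed to 2.52 to 3.39 TPM (NTC), 3.41 to 3.69 TPM (siCEACAM6#2) and 3.15 to 4.65 TPM (siCEACAM6#3). The 4 endothelial markers summed to 2.12 to 2.72, 1.57 to 2.03 and 2.09 to 2.92 TPM in the same order, with KDR at 0 to 0.0209 TPM. The 4 leukocyte markers summed to 30.2 to 40.6, 28.5 to 46.0 and 30.1 to 62.9 TPM, almost all of it CD68, while PTPRC stayed at 0 to 0.249 TPM. The share of counts in mitochondrially encoded genes was 11.8% to 12.9% for NTC, 12.2% to 13.3% for siCEACAM6#2 and 12.5% to 15.3% for siCEACAM6#3, and their part in the results was not tested beyond the fit that left them out.

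The targeted gene was examined first. CEACAM6 stood at 524, 569, 596 and 619 CPM (counts scaled to a common effective library size) in the NTC samples. It was at 353, 343, 286 and 329 CPM with siCEACAM6#2 and at 423, 386, 424 and 438 CPM with siCEACAM6#3. Each siRNA sample lay below each NTC sample. The remaining level was 56.8% of the NTC mean with siCEACAM6#2 and 72.5% with siCEACAM6#3, so the knockdown was partial. The target sites, given in the study's materials, are shown because both comparisons rest on them. They lie on the plus strand of chromosome 19 in GRCh38, at chr19:41771369-41771389 and chr19:41771611-41771631, within the 3′ UTR of CEACAM6.
siCEACAM6#2 target: cagccatgcaatgccaaataa
siCEACAM6#3 target: ctcctaatagtcatactagta

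Expression of the module spanned more than 4 orders of magnitude per transcript length, and most of the RNA belonged to the glycolytic enzymes. GAPDH, glyceraldehyde-3-phosphate dehydrogenase, led with a mean of 3929 TPM over the 12 samples and ranked 21 among all genes. ALDOA (1996 TPM), ENO1 (1294 TPM), PKM (1130 TPM) and TPI1 (1025 TPM) followed. At the other end stood CA9 (0.16 TPM), ARNT2 (0.48 TPM), SLC2A3 (0.61 TPM) and ANGPTL4 (0.83 TPM). HIF1A, at 222 TPM, ranked 11 within the module, close to PGK1 (235 TPM) and SLC2A1 (239 TPM), whose ranges over samples overlap with its own. The plot of levels by pathway step shows that differences between genes were far larger than those between groups.

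**Figure D1:**
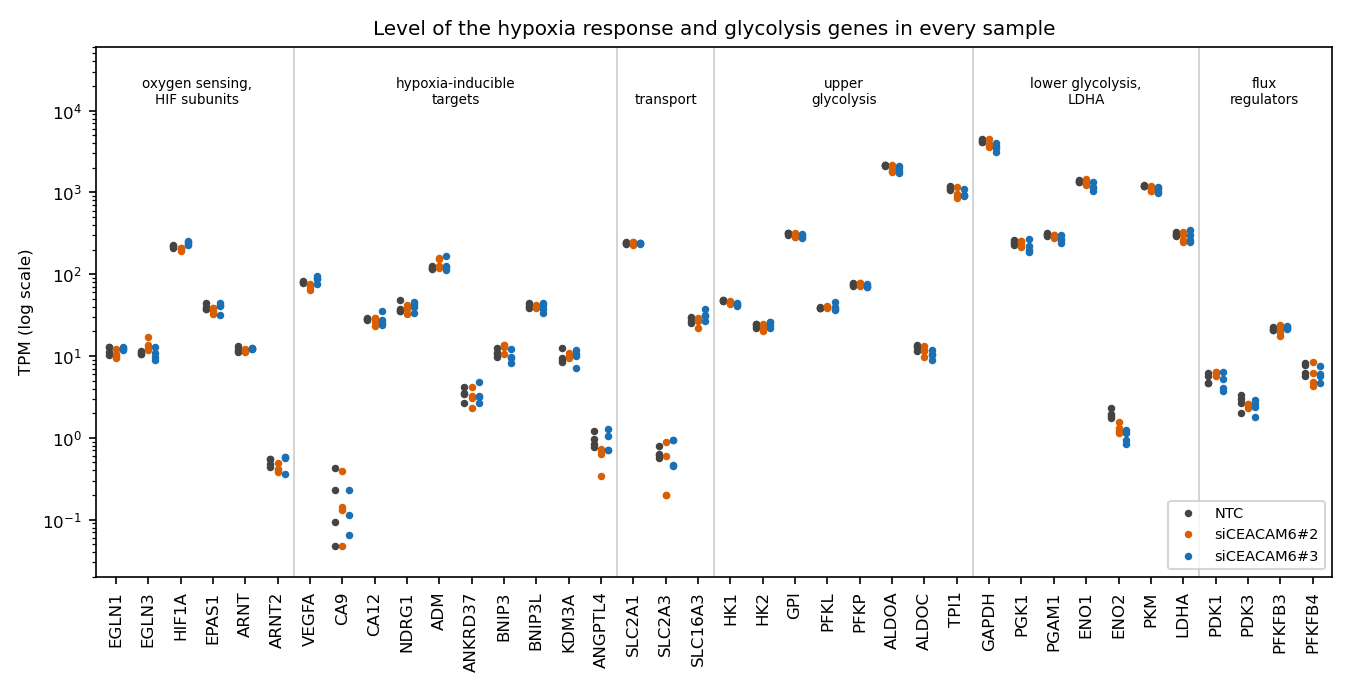
TPM of the 38 genes in every sample on a log axis, ordered by role, with 4 points each for NTC, siCEACAM6#2 and siCEACAM6#3. Levels run from under 1 TPM for CA9, ARNT2, SLC2A3 and ANGPTL4 to 3929 TPM on average for GAPDH; 1 value of CA9 at 0 is not drawn.

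Several steps of the pathway were dominated by 1 isozyme. In the NTC samples ENO1 made up 99.9% ± 0.0161 (SD, n = 4) of the summed TPM of ENO1 and ENO2, and ALDOA 99.4% ± 0.0353 of that of ALDOA and ALDOC. SLC2A1, the basal glucose transporter GLUT1, made up 99.7% ± 0.0464 of its sum with SLC2A3, the GLUT3 transporter. HIF1A took 84.6% ± 1.02 of its sum with EPAS1, which encodes HIF-2 alpha. Shares were more even for HK1 over HK2 (66.7% ± 1.39), PFKP over PFKL (65.8% ± 1.01) and EGLN1 over EGLN3 (51.7% ± 1.78). With siCEACAM6#3 the HK1 share was 63.5% ± 2.01, and with siCEACAM6#2 the EGLN1 share was 43.8% ± 3.83. These shares are descriptions and were not tested.

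The comparison with NTC asked whether knockdown of CEACAM6 was accompanied by a change of the module. The false discovery rate (FDR) of a gene is its p from limma-voom after Benjamini-Hochberg adjustment over all 17620 genes, and an FDR under 0.05 was called. With siCEACAM6#2, 0 of 37 members were called, where 1.25% of all genes were. With siCEACAM6#3, 0 of 37 members were called against 0.0681% of all genes. For the average of both siRNAs the count was again 0 of 37 members, against 0.227% of all genes. In the order siCEACAM6#2, siCEACAM6#3 and average, the edgeR quasi-likelihood test called 0 members in each and 254, 13 and 55 genes in all, and the DESeq2 Wald test 0 members in each and 534, 221 and 337 genes in all. Voom with sample weights called 3, 2 and 5 members and 1120, 382 and 899 genes in all. The shares over all genes depended on single libraries, since leaving out 1 sample at a time gave 49 to 364 called genes with siCEACAM6#2, 2 to 258 with siCEACAM6#3 and 3 to 204 in the average, in place of 221, 12 and 40. The count of 2 came without siCEACAM6#3 replicate 3 and that of 258 without siCEACAM6#3 replicate 1. Both comparisons use the same NTC samples, so their values are given side by side and not combined.

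Below the threshold, the members leaned lower. At an unadjusted limma-voom p under 0.05, siCEACAM6#2 had 6 lower members (16.2%, against 7.12% of all genes) and 1 higher member (2.7%, against 6.5%). With siCEACAM6#3, 9 members were lower (24.3%, against 6.5% of all genes) and 2 were higher (5.41%, against 5.98%). In the average of both siRNAs, 10 members were lower (27.0%, against 6.82% of all genes) and 0 were higher (against 6.06%). These are counts without adjustment for the number of genes, and their members are not independent of each other. The median log2 fold change of the 37 members was -0.07 with siCEACAM6#2 and -0.04 with siCEACAM6#3, beside 0.00 over all genes in each. A value below 0 was found for 28 of 37 members with siCEACAM6#2 and for 21 of 37 with siCEACAM6#3, against 49.9% and 51.1% of all genes. Without siCEACAM6#3 replicate 2 the median with that siRNA was 0.02, so 1 library decided its sign.

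**Figure D2:**
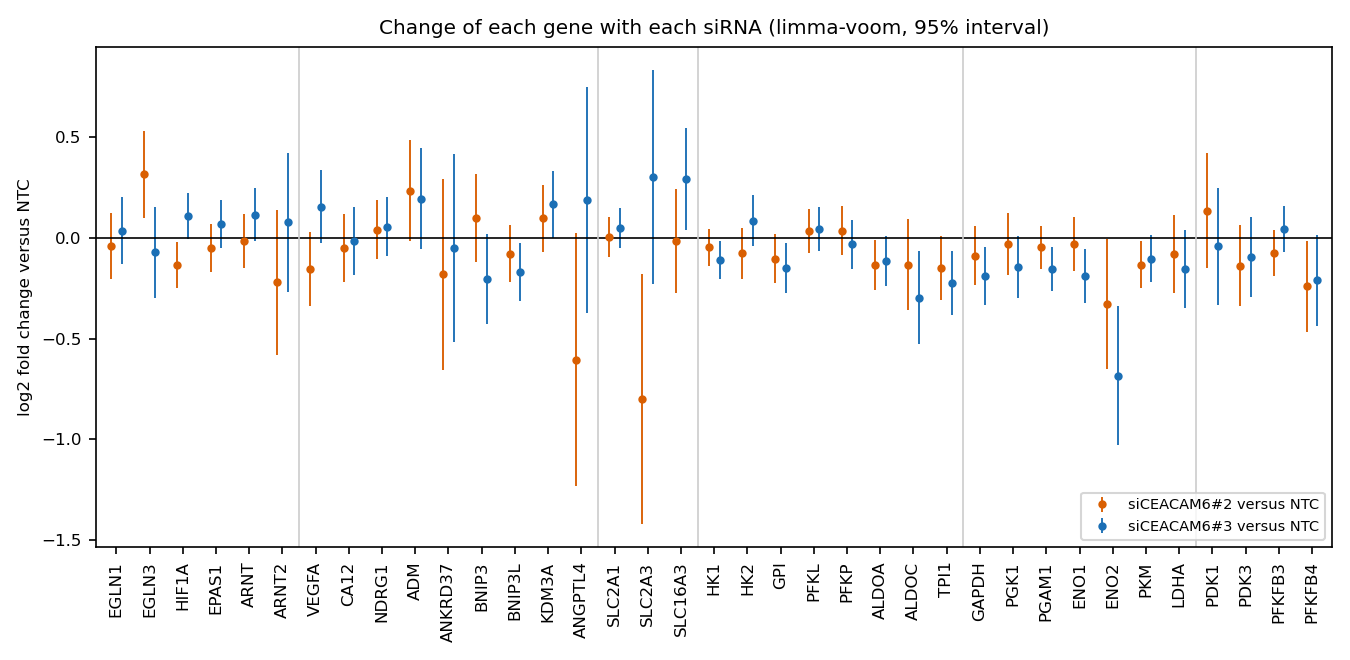
Log2 fold change versus NTC (limma-voom) of the 37 tested genes, ordered by role, with 95% intervals, for siCEACAM6#2 and siCEACAM6#3. The 7 genes of lower glycolysis and lactate dehydrogenase lie below 0 with both siRNAs, and ENO2 has the lowest value with siCEACAM6#3 (-0.68).

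Among the oxygen sensors and HIF subunits, HIF1A differed between the siRNAs and no member was called against NTC. HIF1A (ENSG00000100644, chr14:61695513-61748259, plus strand) encodes the alpha subunit HIF-1 alpha. In NTC it was at 507, 541, 530 and 539 CPM. In the siCEACAM6#2 samples it was at 447, 490, 501 and 492 CPM, all below the lowest NTC sample. The siCEACAM6#3 samples had 524, 594, 613 and 556 CPM, which overlap with NTC and lie above all siCEACAM6#2 samples. Relative to NTC the log2 value was -0.13 (SE 0.05) with siCEACAM6#2 (limma-voom FDR = 0.278) and 0.11 (SE 0.05) with siCEACAM6#3 (FDR = 0.424).

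The direct contrast of siCEACAM6#3 with siCEACAM6#2 gave a log2 difference of 0.24 (SE 0.05, 95% interval 0.13 to 0.36) for HIF1A, at a limma-voom FDR of 0.0345. It was the only member of 37 called in this contrast, where 1.47% of all genes were. Leaving out 1 sample at a time kept the difference between 0.21 and 0.29 but kept the call in only 3 of 12 fits, those without NTC replicate 1, siCEACAM6#3 replicate 1 or siCEACAM6#3 replicate 4. Of 13 other settings 10 made the call, and the limma-voom FDR rose to 0.13 when only the compared groups were fitted. The HIF1A call therefore lies close to the threshold, while its direction was the same in each of these fits.

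EGLN3, a HIF prolyl hydroxylase that is itself a hypoxia-inducible gene, was the other sensor that stood apart. It was at 16.6, 18.3, 16.6 and 17.2 CPM in NTC, at 25.8, 18.6, 21.1 and 20.6 CPM with siCEACAM6#2 and at 19.2, 13.8, 15.8 and 16.9 CPM with siCEACAM6#3. Each siCEACAM6#2 sample lay above each NTC sample, while siCEACAM6#3 overlapped with NTC. Its log2 fold change was 0.32 (SE 0.10) with siCEACAM6#2 and -0.07 (SE 0.11) with siCEACAM6#3, at a limma-voom FDR of 0.162 and 0.822. The difference between the siRNAs was -0.39 (SE 0.10, limma-voom FDR = 0.0812). EGLN3 was chosen for description after its values were seen.

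The remaining subunits lay near the NTC level. ARNT2, a beta subunit known mainly from neurons, was at 2.41, 2.18, 2.89 and 2.78 CPM in NTC. With siCEACAM6#2 it was at 2.08, 2.21, 1.96 and 2.49 CPM, and with siCEACAM6#3 at 2.92, 3.06, 2.98 and 1.97 CPM. These groups overlap, and replicate 4 of siCEACAM6#3 is far below the other 3. EGLN1, the main oxygen-sensing prolyl hydroxylase, EPAS1 and ARNT, the common beta subunit, had log2 fold changes from -0.05 to 0.12 over both siRNAs. Their 95% intervals all lay between -0.21 and 0.25.

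The 10 hypoxia-inducible targets showed no common direction. Of the 9 that were tested, 5 lay below 0 with siCEACAM6#2 and 4 with siCEACAM6#3, and the median log2 fold change was -0.05 and 0.05. CA9, carbonic anhydrase 9, is a widely used tissue marker of hypoxia. Its estimated counts were 3, 4.79, 2 and 1 in NTC, 1, 3, 4 and 2.76 with siCEACAM6#2 and 3, 1, 0 and 1.41 with siCEACAM6#3. At 0 to 0.213 CPM in every sample it was near the limit of detection, and no fold change is given. The related CA12 was at 79.8 to 106 CPM.

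VEGFA encodes the vascular endothelial growth factor and is a classical HIF target. NTC samples had 160.5, 176, 176 and 169.8 CPM. The siCEACAM6#2 samples had 139, 155, 156 and 162 CPM, and those with siCEACAM6#3 had 159.5, 184, 189.5 and 233 CPM. Replicate 4 of siCEACAM6#3 was the highest of all 12 samples, and both siRNA groups overlap with NTC. Against NTC it differed by -0.16 (SE 0.09) on the log2 scale with siCEACAM6#2 and 0.16 (SE 0.09) with siCEACAM6#3, at a limma-voom FDR of 0.465 and 0.471. Between the siRNAs the difference was 0.31 (SE 0.09, limma-voom FDR = 0.0913), and it was 0.21 without siCEACAM6#3 replicate 4.

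BNIP3L, a receptor for the removal of mitochondria by autophagy, was at 78.2, 82.6, 75.7 and 74.8 CPM in NTC. With siCEACAM6#2 it was at 74.0, 70.2, 74.1 and 76.3 CPM, and with siCEACAM6#3 at 76.0, 65.0, 75.5 and 61.5 CPM. The groups overlap, and the log2 fold change of the average was -0.12 (SE 0.06). ADM, the vasodilator peptide adrenomedullin, was spread widely within the siRNA groups, from 122 to 168 CPM with siCEACAM6#2 and from 116 to 181 CPM with siCEACAM6#3, against 116 to 131 CPM in NTC. Its log2 fold change was 0.235 (SE 0.118) with siCEACAM6#2 and 0.195 (SE 0.118) with siCEACAM6#3, at a limma-voom FDR of 0.402 and 0.517. The average of 0.215 (SE 0.102, limma-voom FDR = 0.394) was the highest of the 37 tested members. NDRG1, a stress-responsive gene, and KDM3A, a histone demethylase, had log2 fold changes of 0.04 to 0.17 over both siRNAs. BNIP3, the paralogue of BNIP3L, had 0.10 and -0.20 with siCEACAM6#2 and siCEACAM6#3, and 14.3% of the counts under its name and those of its pseudogenes went to the pseudogenes. ANKRD37 and ANGPTL4, the latter a lipoprotein lipase inhibitor, were low at 0.41 to 2.09 CPM and had wide intervals.

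**Figure D3:**
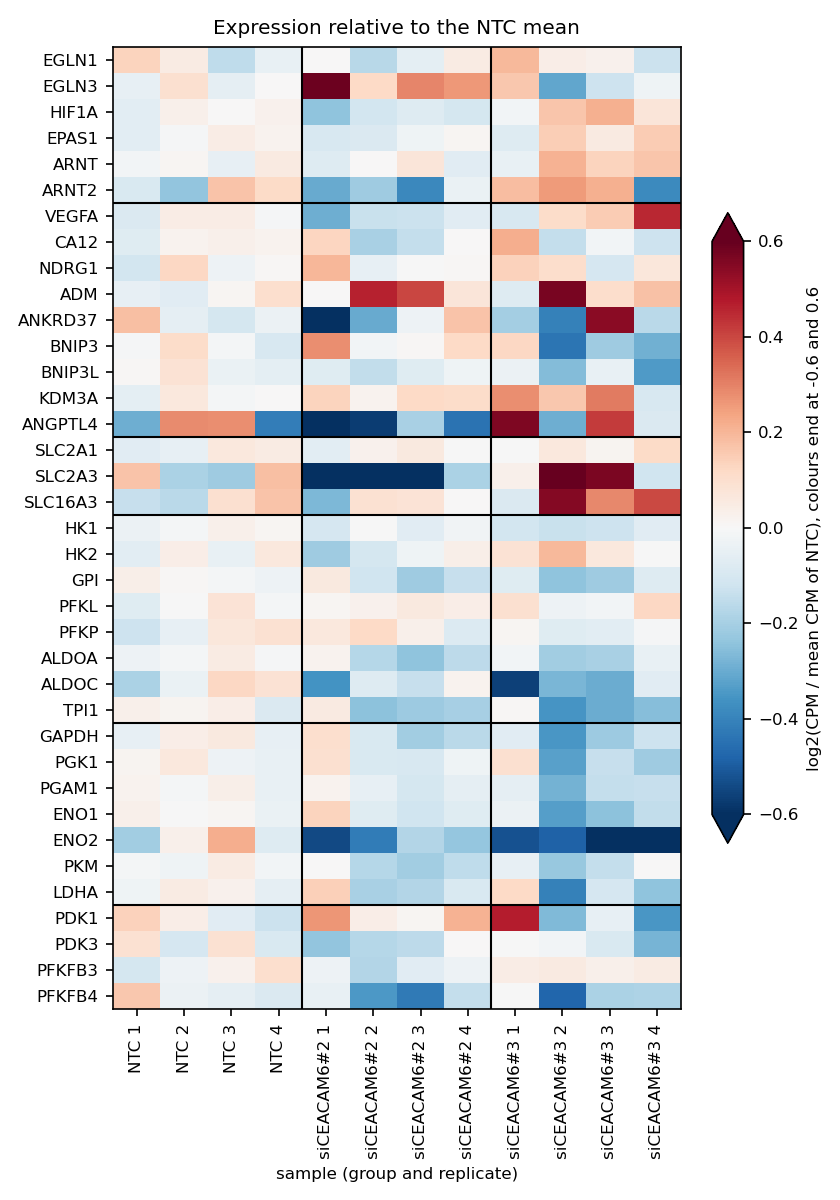
Log2 ratio of CPM to the NTC mean for the 37 tested genes (rows, by role) in the 12 samples (columns), with colours ending at -0.6 and 0.6. Most glycolytic enzymes are blue in replicates 2 to 4 of both siRNAs, while replicate 1 of each is close to NTC or above it for most of them. Exceptions include ALDOC and ENO2 with both siRNAs and HK2 with siCEACAM6#2. HIF1A is blue with siCEACAM6#2.

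Of the transporters, SLC2A1 lay close to NTC with both siRNAs. Its log2 fold change was 0.00 with siCEACAM6#2 (95% interval -0.10 to 0.10) and 0.05 with siCEACAM6#3 (95% interval -0.05 to 0.15). SLC2A3 was scarce, at 1.09, 0.85, 0.83 and 1.09 CPM in NTC, 0.63, 0.37, 0.41 and 0.85 CPM with siCEACAM6#2 and 0.99, 1.55, 1.43 and 0.89 CPM with siCEACAM6#3. These values rest on 8 to 33 estimated counts per sample, and 16.8% of the counts under the names of SLC2A3 and its pseudogenes went to the pseudogenes. The difference between the siRNAs was 1.10 (SE 0.28, limma-voom FDR = 0.0702), and 0.75 with the pseudogene counts added. SLC16A3, the lactate exporter MCT4, had -0.02 on the log2 scale with siCEACAM6#2 and, with siCEACAM6#3, 0.29 (SE 0.12, limma-voom FDR = 0.329).

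The glycolytic enzymes lay lower with both siRNAs without any of them being called. Of 15 enzymes, 13 had a log2 fold change below 0 with siCEACAM6#2 and 13 with siCEACAM6#3 (86.7% each, against 49.9% and 51.1% of all genes). The medians were -0.08 and -0.15. An unadjusted limma-voom p under 0.05 was reached in the lower direction by 3 enzymes with siCEACAM6#2 (20.0%, against 7.12% of all genes) and 8 with siCEACAM6#3 (53.3%, against 6.5%), and in the higher direction by 0 with either. Mean CPM ran from 79.3% to 102% of NTC with siCEACAM6#2 and from 62.2% to 106% with siCEACAM6#3. The 108 nuclear genes with a mean of at least 1000 TPM, a threshold chosen after seeing the data, include 5 members of the module (GAPDH, ALDOA, ENO1, PKM and TPI1) and had medians of 0.10 and 0.04, with 20.4% and 36.1% of them below 0.

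In upper glycolysis, the steps from glucose to triose phosphates, 6 of 8 genes lay below 0 with each siRNA. GPI, which converts glucose-6-phosphate to fructose-6-phosphate, was at 424, 415, 411 and 406 CPM in NTC, 431, 381, 357 and 376 CPM with siCEACAM6#2 and 394, 350, 357 and 393 CPM with siCEACAM6#3. The siCEACAM6#3 samples all lay below NTC, whereas replicate 1 of siCEACAM6#2 was the highest of all. ALDOA, the main aldolase, was at 1984, 2011, 2097 and 2020 CPM in NTC, 2058, 1804, 1718 and 1817 CPM with siCEACAM6#2 and 2003, 1755, 1773 and 1966 CPM with siCEACAM6#3. Replicates 2 to 4 of both siRNAs were below NTC, and replicate 1 was inside its range. The log2 fold change of the average was -0.13 (SE 0.05) for both genes.

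TPI1, triose phosphate isomerase, was also lower than NTC in replicates 2 to 4 of both siRNAs, while replicate 1 lay above NTC with siCEACAM6#2 and inside its range with siCEACAM6#3. NTC samples had 599, 592, 602 and 551 CPM. Those with siCEACAM6#2 had 609, 495, 504 and 511 CPM, and those with siCEACAM6#3 had 589, 459, 477 and 490.5 CPM. Its log2 fold change was -0.15 (SE 0.08) with siCEACAM6#2 and -0.22 (SE 0.08) with siCEACAM6#3, at a limma-voom FDR of 0.406 and 0.253. With replicate 1 of every group left out, a setting added after seeing the data, the values were -0.20 and -0.28, and TPI1 was called with siCEACAM6#3 (limma-voom FDR = 0.0209). The call thus rested on which replicates entered the fit.

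The minor aldolase ALDOC was at 12.6, 14.0, 15.6 and 15.2 CPM in NTC, 11.2, 13.6, 13.04 and 14.5 CPM with siCEACAM6#2 and 9.73, 11.9, 11.7 and 13.7 CPM with siCEACAM6#3. Here replicate 1 was the lowest of each group, and the groups overlap. HK1, which phosphorylates glucose, had 92.7% of the NTC mean with siCEACAM6#3, with all 4 samples below NTC. HK2, the more inducible hexokinase, and the phosphofructokinases PFKL and PFKP had log2 fold changes from -0.08 to 0.09 over both siRNAs.

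In lower glycolysis, which yields ATP and pyruvate, all 7 genes lay below 0 with each siRNA. GAPDH was at 3384, 3600, 3656 and 3386 CPM in NTC, 3764, 3294, 3035 and 3139 CPM with siCEACAM6#2 and 3341, 2752, 3010 and 3215 CPM with siCEACAM6#3. All siCEACAM6#3 samples lay below NTC, at 87.8% of its mean, and the siCEACAM6#2 samples lay on both sides. Against NTC the log2 difference was -0.09 (SE 0.07) with siCEACAM6#2 and -0.19 (SE 0.07) with siCEACAM6#3, at a limma-voom FDR of 0.631 and 0.267. GAPDH is commonly used as a reference gene in quantitative PCR.

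PGAM1, phosphoglycerate mutase, was at 399.5, 390, 402 and 381 CPM in NTC, 398, 380, 365 and 379 CPM with siCEACAM6#2 and 379, 323, 356 and 357 CPM with siCEACAM6#3. The siCEACAM6#3 samples did not overlap with NTC. ENO1, the ubiquitous enolase, was at 1746, 1705, 1723 and 1665 CPM in NTC, 1878, 1627, 1572 and 1628 CPM with siCEACAM6#2 and 1667, 1360, 1443 and 1542 CPM with siCEACAM6#3. Its log2 fold change was -0.03 (SE 0.06) and -0.19 (SE 0.06), at a limma-voom FDR of 0.891 and 0.245.

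ENO2, the neuron-type enolase, had the largest fold change among the enzymes at a very low level. It was at 2.46, 2.89, 3.30 and 2.69 CPM in NTC, from 55 to 72 estimated counts per sample. With siCEACAM6#2 it was at 1.95, 2.12, 2.51 and 2.42 CPM, and with siCEACAM6#3 at 1.97, 2.02, 1.65 and 1.41 CPM. All siCEACAM6#3 samples lay below NTC, and siCEACAM6#2 overlapped with it in 1 sample. The log2 fold change was -0.33 (SE 0.15) and -0.68 (SE 0.16), at a limma-voom FDR of 0.358 and 0.131. The average over both siRNAs was -0.51 (SE 0.13, limma-voom FDR = 0.111).

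PKM, pyruvate kinase, was at 1972, 1953, 2054 and 1967 CPM in NTC, 1987, 1767, 1720 and 1786 CPM with siCEACAM6#2 and 1923, 1695, 1801 and 1992 CPM with siCEACAM6#3. Both siRNA groups overlap with NTC, and the log2 fold change of the average was -0.12 (SE 0.05). PGK1, which makes the first ATP of the pathway, and LDHA, which turns pyruvate into lactate, had -0.03 and -0.08 with siCEACAM6#2 and -0.15 and -0.16 with siCEACAM6#3.

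**Figure D4:**
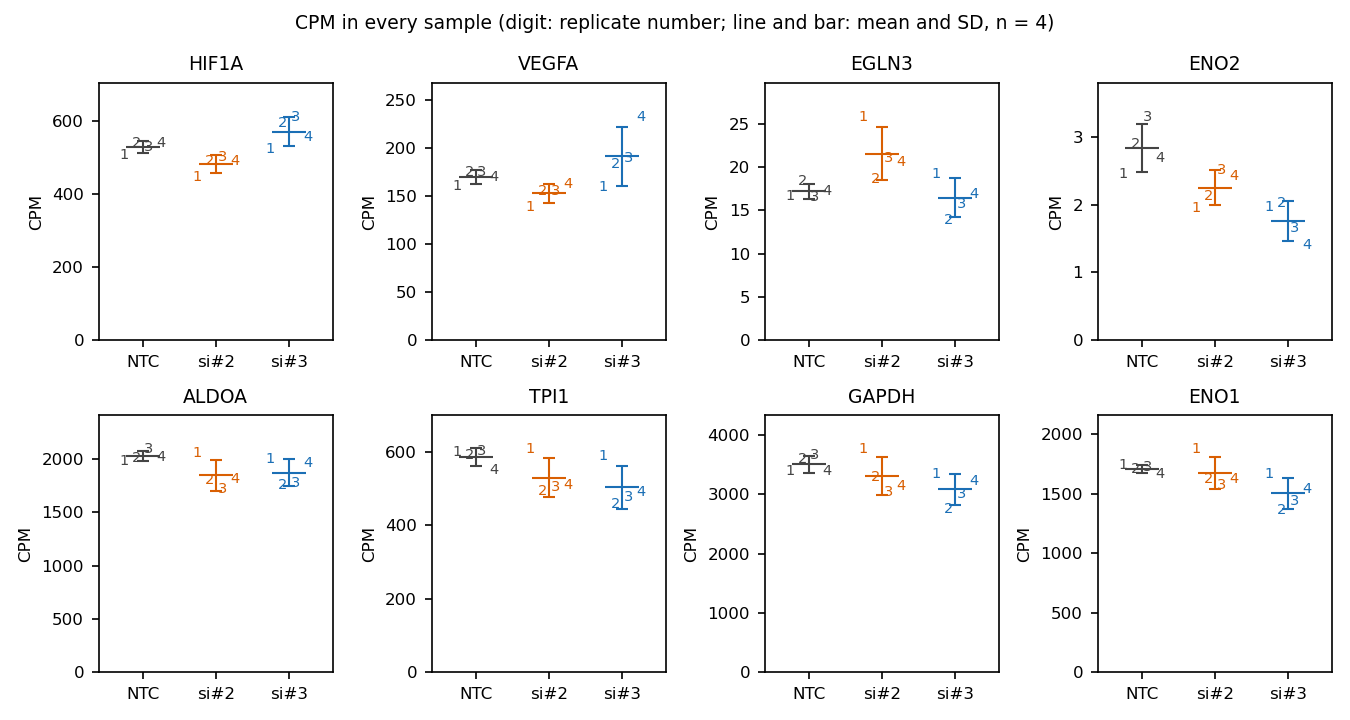
CPM of 8 genes in every sample, with axes from 0, where the digit is the replicate number and the line and bar are mean and SD (n = 4); si#2 and si#3 stand for siCEACAM6#2 and siCEACAM6#3. HIF1A is lower in all siCEACAM6#2 than in all siCEACAM6#3 samples, and replicate 1 is the highest of its siRNA group for ALDOA, TPI1, GAPDH and ENO1.

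Summed over the 15 enzymes, the level was 11548, 11733, 11586 and 11229 TPM in NTC. With siCEACAM6#2 the sums were 11918, 10068, 9759 and 10470 TPM, and with siCEACAM6#3 they were 11216, 9027, 9646 and 10089 TPM. Replicates 2 to 4 of both siRNAs lay below all NTC samples, whereas replicate 1 of siCEACAM6#2 was the highest sample and that of siCEACAM6#3 lay just below the lowest NTC sample. Replicate 1 was the highest of its group for 9 of 15 enzymes with each siRNA, against 2 of 15 in NTC. It was the lowest of its group for 8 of 15 in NTC, 5 with siCEACAM6#2 and 1 with siCEACAM6#3. Replicate 1 lay below every NTC sample for 4 of 15 enzymes with siCEACAM6#2 and 7 of 15 with siCEACAM6#3. For replicates 2, 3 and 4 the counts were 11, 10 and 9 of 15 with siCEACAM6#2 and 12, 12 and 10 with siCEACAM6#3. No share over all genes is given beside these counts of single samples. The same replicate 1 of siCEACAM6#3 had 12.5% of counts in mitochondrially encoded genes, against 14.3% to 15.3% in its other replicates, and with siCEACAM6#2 the values were 12.3% and 12.2% to 13.3%. The part of these values in the enzyme levels was not tested. With replicate 1 of every group left out, a fit chosen after seeing the data, the enzyme medians were -0.12 and -0.17. Leaving out a replicate that was the highest for most enzymes tends to lower the siRNA means. Where NTC replicate 1 was the lowest, in 8 of 15 enzymes, leaving it out raises the NTC mean. The enzyme values of this fit are therefore no separate support. In that fit 6 of 15 enzymes with siCEACAM6#2 and 11 of 15 with siCEACAM6#3 reached an unadjusted limma-voom p under 0.05 in the lower direction, against 7.55% and 7.85% of all genes. Genes called over the whole table with siCEACAM6#3 rose from 12 to 172 in the same fit.

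**Figure D5:**
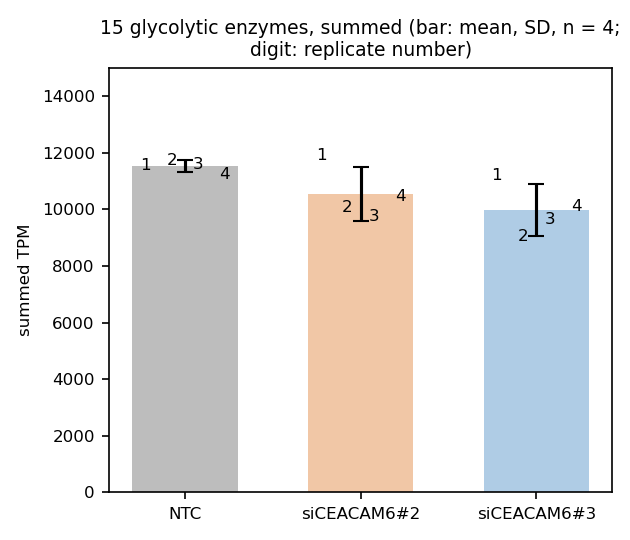
Summed TPM of the 15 glycolytic enzymes, with a bar from 0 for the mean of each group, the SD as error bar (n = 4) and the replicate number at each sample's value. Replicates 2 to 4 of both siRNAs lie between 9027 and 10470 TPM, below the NTC samples at 11229 to 11733 TPM.

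Of the 4 regulators of flux, 3 lay below 0 with each siRNA, with medians of -0.11 and -0.07, and 0 were called. PFKFB4, which sets the level of the glycolytic activator fructose-2,6-bisphosphate, was at 14.2, 12.4, 12.2 and 11.9 CPM in NTC, 12.3, 9.98, 9.45 and 11.5 CPM with siCEACAM6#2 and 12.7, 9.13, 11.1 and 11.2 CPM with siCEACAM6#3. The groups overlap through replicate 1, and the log2 fold change of the average was -0.23 (SE 0.09). PFKFB3, its more abundant relative, and the pyruvate dehydrogenase kinases PDK1 and PDK3, which keep pyruvate out of the mitochondria, had log2 fold changes from -0.14 to 0.13 over both siRNAs.

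Over the whole module, few members had samples that all lay on 1 side of NTC. With siCEACAM6#2, HIF1A alone lay below NTC in all samples (2.7% of 37 members, against 5.44% of all genes) and EGLN3 alone above (2.7%, against 5.32%). With siCEACAM6#3, HK1, GPI, GAPDH, PGAM1 and ENO2 lay below NTC in all samples (13.5%, against 3.29% of all genes) and 0 members above (against 3.01%). All 5 are glycolytic enzymes.

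The contrast of siCEACAM6#3 with siCEACAM6#2 gave more higher than lower members. At an unadjusted limma-voom p under 0.05, 8 members were higher with siCEACAM6#3 (21.6%, against 6.81% of all genes) and 3 were lower (8.11%, against 6.5%). Of the 8 higher members, HIF1A, EPAS1, VEGFA and ANGPTL4 belong to the hypoxia response, SLC2A3 and SLC16A3 are transporters, and HK2 and PFKFB3 act at the entry of glycolysis. The 3 lower members were EGLN3 and BNIP3, which also belong to the hypoxia response, and the glycolytic enzyme ENO1. The hypoxia response genes therefore went in both directions. These members are named because they make up the count, and HIF1A is the only called gene among them.

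Genes of the same pathways outside the module gave few calls as well, where 0.0681% to 1.47% of all genes were called in the 4 contrasts. Of 24 further hypoxia genes, 23 were tested and 0 were called in any of the 4 contrasts. Their median log2 fold change was 0.04 with siCEACAM6#2 and 0.05 with siCEACAM6#3. At an unadjusted limma-voom p under 0.05, 4 were higher and 2 lower with siCEACAM6#2, and 2 higher and 1 lower with siCEACAM6#3. In the average 5 of the 23 were higher and 1 was lower, against 6.06% and 6.82% of all genes. Of 35 further genes of glycolysis and its outlets, 26 were tested and 1 was called lower with siCEACAM6#2. This was PC, pyruvate carboxylase, which makes oxaloacetate from pyruvate inside the mitochondria. PC was at 20.1, 20.0, 20.6 and 21.0 CPM in NTC, 15.2, 15.4, 16.4 and 16.4 CPM with siCEACAM6#2 and 16.7, 16.8, 17.4 and 19.8 CPM with siCEACAM6#3. Both siRNA groups lay below NTC, with a log2 fold change of -0.37 (SE 0.07, limma-voom FDR = 0.0169) and -0.21 (SE 0.07, limma-voom FDR = 0.216). HKDC1, a hexokinase relative, was at 5.47 to 6.93 CPM in NTC, 7.06 to 7.88 CPM with siCEACAM6#2 and 4.49 to 6.07 CPM with siCEACAM6#3. It differed between the siRNAs by -0.54 (SE 0.11, limma-voom FDR = 0.0243). The 26 tested glycolysis genes had medians of -0.03 with siCEACAM6#2 and -0.09 with siCEACAM6#3. At an unadjusted limma-voom p under 0.05, 4 and 7 of them were lower, against 7.12% and 6.5% of all genes. In the higher direction the counts were 2 and 1, against 6.5% and 5.98%.

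HIF binds the core letters ACGTG or GCGTG, and the promoters of the module were searched for them on both strands. CACGTG reads as ACGTG on each strand and counts as 2 overlapping matches. RefSeq promoter windows on GRCh38.p14, from 250 bases before to 50 after a gene's start, were found for 33 of 38 members. At least 1 match stood in 30 of these 33 members (90.9%), against 52.4% of 27305 genes with a window. Counted by window it was 40 of 55 (72.7%), against 48.4% of 35116. A match is a description and says nothing of binding in these cells. The stretches shown are 29 bases long, for HIF1A, for the hypoxia marker CA9 and for 6 enzymes described above. Each surrounds the match nearest to the start among matches whose 29 bases all lie before the start. Matches closer to the start or after it were not considered for display. The stretches are read 5′ to 3′ on the gene's strand with the match in capitals (CACGT is ACGTG read on the opposite strand).
HIF1A, chr14:61695297-61695325, plus strand: tggctgagagcgGCGTGggctggggtggg
CA9, chr9:35673898-35673926, plus strand: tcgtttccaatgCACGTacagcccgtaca
GPI, chr19:34364818-34364846, plus strand: acactgcctgtaACGTGgaaggtgttcga
ALDOA, chr16:30064374-30064402, plus strand: ggcagggaggccACGTGatccgagtcccc
TPI1, chr12:6868076-6868104, plus strand: cgtgcgccgccgCACGTagccccagactc
GAPDH, chr12:6535172-6535200, plus strand: ctctgcggggtcACGTGtcgcagaggagc
ENO1, chr1:8878742-8878770, minus strand: ggagctgaggggGCGTGccccggaggcgg
ENO2, chr12:6914450-6914478, plus strand: acccgcgctcgtACGTGcgcctccgccgg
Among the stretches shown, the distance from the match to the start ran from 12 bases in TPI1 and 13 in CA9 to 199 in HIF1A. By the choice of stretches, 12 bases is the least possible. The match was present both in genes at over 1000 TPM, such as GAPDH, and in CA9, which was near the limit of detection.

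Because siRNAs can also act through a short seed, the 3′ UTRs were searched for the 7-base site of each, an analysis added after seeing the data. The site is the match to guide positions 2 to 8, where the guide strand is assumed to be fully complementary to its target. The siCEACAM6#2 site ccaaata stood in the 3′ UTR of 8 of 37 members (21.6%), against 15.5% of 13771 tested genes with an annotated 3′ UTR. These were ARNT, CA12, PDK1, SLC2A3, HK2, GPI, ALDOA and ALDOC. The siCEACAM6#3 site tactagt stood in BNIP3 and BNIP3L (5.41%, against 6.62%). HIF1A had neither site. As a description, these members had log2 fold changes of -0.80 (SLC2A3) to 0.13 (PDK1) with siCEACAM6#2, and BNIP3 and BNIP3L had -0.20 and -0.17 with siCEACAM6#3. Whether the sites play a part was not tested.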

How the data were processed

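RNA of 12 SNU308 samples was sequenced on a DNBSEQ instrument. Reads were strand-specific and paired (100 bases) per the labels but single (50 bases) per the study's methods. According to the labels and methods, the authors trimmed reads with Trim Galore 0.6.4 and quantified them with kallisto (0.4.6 in the labels) against GENCODE transcripts of GRCh38.p13; the summing to genes is not given in the sources used here. The authors deposited estimated counts per gene, unscaled, and TPM per gene, scaled for length and depth. Kallisto splits reads among similar transcripts, so genes with pseudogenes are uncertain.

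Of 60617 identifiers, 60357 (99.6%) matched a symbol. Estimated counts were rounded and fitted with limma 3.58.1 and edgeR 4.0.16 in R 4.3.3: filterByExpr by group, TMM scaling, voom weights and 1 coefficient per group, with no covariate. Totals of 21799476 to 22059456 counts made counting error small for abundant genes. For genes at a few CPM or less, such as ENO2 (30 to 72 counts per sample), ARNT2 (42 to 65) and ANKRD37 (20.6 to 45.7), it is large beside most fold changes given. Comparisons were each siRNA and their average versus NTC, and siCEACAM6#3 versus siCEACAM6#2. CPM used TMM-scaled library sizes, and intervals are 95%. Alternatives covered scaling, filter, test (DESeq2 1.42.0 among them), weights, TPM, the replicate block, pseudogenes and left-out samples; the fits without mitochondrially encoded genes and without replicate 1 of every group were chosen after seeing the data. The reported limma-voom fit ran first on simulated data with known changes, and the alternative fits were not run on such data. Same-numbered samples deviated together with r from -0.05 to 0.19, which does not settle whether the numbers pair the samples. Gene positions and 3′ UTRs are those of GENCODE release 44 (GRCh38).

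The members, the pathway lists and the tests were chosen with earlier results of these data known. Every member is accounted for. All samples' values are given for members called in a contrast or at an unadjusted p under 0.05 in the average versus NTC, for HIF1A, CA9, VEGFA and ARNT2, and for the 3 members with the highest and the 3 with the lowest mean TPM. Other pathway genes are named where called.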

Additional observations from a re-analysis of the deposited data

Results flagged for a closer look

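Among 114 groups of 4 samples looked at for the 38 genes, 3 had a sample far from the other 3 by Dixon's criterion, where chance alone flags about 1 in 20 groups. ARNT2 was at 1.97 CPM in siCEACAM6#3 replicate 4, below the other 3 at 2.92 to 3.06 CPM. CA12 was at 86.8 CPM in NTC replicate 1, below the other 3 at 92.5 to 93.2 CPM. TPI1 was at 609 CPM in siCEACAM6#2 replicate 1, above the other 3 at 495 to 511 CPM.

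For HIF1A the direct test of siCEACAM6#3 against siCEACAM6#2 gave 0.24 on the log2 scale, at a limma-voom FDR of 0.0345.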

How the results depend on the processing

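For the 39 member values at an unadjusted p under 0.05 in the reported fit, 965 alternative values were computed. Of these, 925 kept direction and side of the threshold, 12 lost the call, 28 gained it and 0 changed sign. Only HIF1A between the siRNAs was called in the reported fit, so all 12 lost calls were its own. For the other values, keeping the side meant staying uncalled. Choosing values by their p favours those away from 0: of the 109 other member values, 43 changed sign in at least 1 alternative. Of 99 alternative medians over the members, 93 moved by less than the spread between replicates and 6 moved by more. Voom with sample weights called 3 members with siCEACAM6#2 (EGLN3, ALDOA and PKM), 2 with siCEACAM6#3 (ENO1 and ENO2), 5 in the average (GPI, ALDOA, TPI1, ENO2 and PKM) and 4 between the siRNAs (EGLN3, HIF1A, VEGFA and SLC2A3), in place of 0, 0, 0 and 1. Over all genes it called 1120, 382, 899 and 560 in place of 221, 12, 40 and 259. Leaving out replicate 1 of every group gave 1 call with siCEACAM6#3 and 1 in the average (TPI1 in each) and 2 between the siRNAs (HIF1A and VEGFA). Between the siRNAs, the DESeq2 Wald test and the replicate block each called 3 members (EGLN3, HIF1A and VEGFA), while log2(TPM + 1), log2(TPM + 0.1) and a fit of only the groups compared called 0. Leaving out 1 sample at a time gave 0 to 2 members called with siCEACAM6#3 and 0 to 6 between the siRNAs. The highest values, SLC16A3 and TPI1 with siCEACAM6#3 and EGLN3, HIF1A, VEGFA, BNIP3, SLC2A3 and SLC16A3 between the siRNAs, came without siCEACAM6#3 replicate 1, where 258 and 651 of all genes were called in place of 12 and 259. The cause was not tested. Same-numbered samples correlated at -0.05 to 0.19, which does not settle a pairing, and the replicate block is given as a sensitivity check. Over all genes the block called 284, 87, 118 and 349. The DESeq2 Wald test called 534, 221, 337 and 556 genes, the TPM fits 5, 4, 2 and 49 at a pseudocount of 1 and 6, 4, 7 and 53 at 0.1. No filter called 24 with siCEACAM6#3. With replicate 1 of every group left out, the counts over all genes were 241, 172, 153 and 289 in the order used above. A fit of only the groups compared called 600 with siCEACAM6#2 and 57 between the siRNAs, and it gives no value for the average. Depth limits statements on CA9, SLC2A3, ANGPTL4, ANKRD37, ARNT2 and ENO2, and 4 samples a group limit the rest.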
